A study of Rattus norvegicus with 6 samples.

Results

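T cell receptor complex and signalling genes were compared between soft tissue around a dental implant and healed oral mucosa of the rat. The set holds 10 genes chosen by symbol, namely Cd3g, Cd3d, Cd3e, Cd2, Cd4, Cd8a, Lck, Zap70, Il2rg and Il7r, out of 14217 genes that the array annotation names singly. All 10 were on the array, through 15 of its 31042 non-control probe sets, and each gene is described by the brightest of its probe sets, judged on the mean of the 6 arrays. The animals were males of the outbred Sprague Dawley strain and had the upper first molars extracted on both sides at 4 weeks of age. An implant of titanium alloy went into the left socket alone, and the right socket healed empty. After 4 weeks the soft tissue around the implant (peri-implant, 3 arrays) was taken from the left side and the mucosa over the healed socket (mucosal, 3 arrays) from the right. Both groups therefore carried the extraction, and implant and side of the mouth cannot be told apart. Nothing in the labels ties the 3 samples of a tissue to separate animals, and p-values then reflect only how far these samples scatter, which may be technical scatter.

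The T cell receptor recognises a peptide held by an MHC molecule, and since its own chains have almost no cytoplasmic part, the signal passes through the CD3 chains bound to it. The co-receptors CD4 and CD8 bind MHC class II and class I and carry the kinase Lck, which phosphorylates the CD3 and zeta chains; the kinase ZAP-70 then docks on them and phosphorylates adaptor proteins. Resting T cells also depend on cytokine receptors that share the common gamma chain, Il2rg, among them the interleukin-7 receptor. In oral mucosa, T cells lie within the epithelium and in the connective tissue under it.

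Values are log2 signals of an Affymetrix 3′ expression array as deposited by the authors, and the values themselves show a scaling per array. Median signal was 6.62 to 6.78 on the 6 arrays. A signal under 5.90, the 40th percentile of all single values, is called dim, because differences among such values are unreliable. Each difference is the peri-implant mean minus the mucosal mean of log2 signals as deposited. Where a group mean was dim, the difference is given again with dim values raised to 5.90. Keratin genes were bright in both groups, with Krt5 at 15.18 and 15.69 and Krt14 at 15.71 and 15.95 in peri-implant and mucosal tissue, so both groups carried keratinocyte markers. A test was made for genes whose mean over all 6 arrays exceeded 5.68, and a gene is called higher or lower at an adjusted p under 0.05 in limma.

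Nearly all of the T cell receptor genes had higher signals around the implant. In 9 of the 10 genes every peri-implant array exceeded every mucosal array, a separation shown by 19.8% of all genes on the array, and Cd4 was the exception. The CD3 chains differed by 4.91-fold for Cd3g, 11.5-fold for Cd3e and 12.3-fold for Cd3d as deposited, and by 4.91-fold, 2.93-fold and 2.80-fold with dim values raised to the floor. The kinase Lck had the smallest difference among those 9 as deposited, 1.95-fold. The median difference of the 10 genes was 1.80, or 1.44 with dim values raised, while the median of all genes on the array was 0.024, or 0 with dim values raised. In tissue samples, more T cells and more RNA per T cell cannot be told apart.

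The filter on signal passed 7 of the 10 genes and left out Cd3d, Cd4 and Cd8a. The 7 tested genes were all called higher (limma adjusted p from 5.25e-06 for Cd3g to 0.0315 for Zap70), where 15.2% of the 10585 genes tested were. The filter bears on that count: it left out Cd3d and Cd8a, which were dim in mucosa, while Cd3e and Zap70, also dim there on average, passed through their peri-implant values. When limma was fitted to all probe sets with no filter, 8 of the 10 genes were called higher, against 10.4% of all genes. Cd3d (adjusted p = 0.000791 in limma) and Cd8a (adjusted p = 0.0456 in limma) were then called, and Zap70 missed the threshold (adjusted p = 0.0551 in limma).

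**Figure D1:**
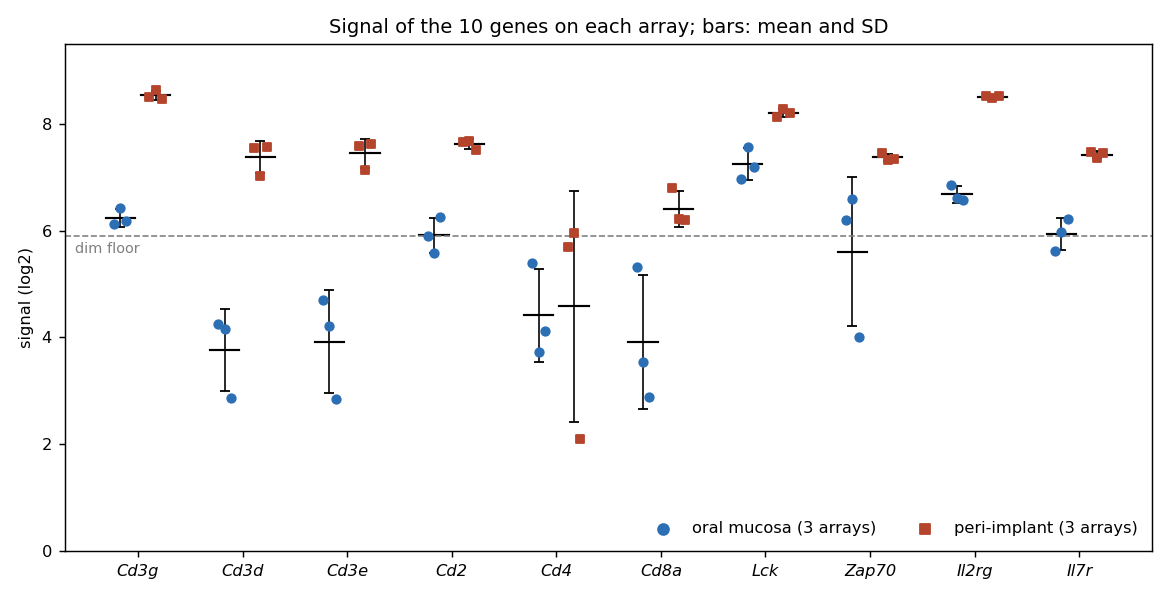
Signal on the log2 scale of the 10 genes on each of the 3 mucosal arrays (blue circles) and 3 peri-implant arrays (red squares), with the group mean and SD as black bars and the dim floor of 5.90 as a dashed line. The groups are separate for 9 genes and overlap for Cd4, and the mucosal values of Cd3d, Cd3e and Cd8a lie below the floor.

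The 3 CD3 genes encode the gamma, delta and epsilon chains, each of which carries an immunoreceptor tyrosine-based activation motif in its cytoplasmic tail. They are consecutive genes on rat chromosome 8. In the RefSeq annotation Cd3g and Cd3d are transcribed away from each other from starts 1601 bases apart, and Cd3e starts 26251 bases from Cd3d. Because these neighbouring genes encode the signalling chains of the receptor and were all higher around the implant, the 250 bases before each start are shown (RefSeq, GRCr8). Capitals mark AGGAAG or its reverse complement CTTCCT, a core bound by Ets-family factors, and CAGCTG, an E box.
Cd3g, chr8:54183919-54184168, minus strand: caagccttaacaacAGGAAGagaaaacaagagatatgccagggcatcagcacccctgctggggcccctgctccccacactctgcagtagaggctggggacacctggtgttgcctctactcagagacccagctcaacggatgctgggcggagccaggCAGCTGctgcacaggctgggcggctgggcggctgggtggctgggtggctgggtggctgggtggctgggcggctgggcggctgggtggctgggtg
Cd3d, chr8:54185269-54185518, plus strand: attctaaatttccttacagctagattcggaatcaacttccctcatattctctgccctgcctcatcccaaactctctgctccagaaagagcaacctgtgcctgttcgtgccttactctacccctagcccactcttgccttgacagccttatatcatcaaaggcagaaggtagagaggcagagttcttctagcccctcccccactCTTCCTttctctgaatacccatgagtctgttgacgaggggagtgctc
Cd3e, chr8:54211771-54212020, minus strand: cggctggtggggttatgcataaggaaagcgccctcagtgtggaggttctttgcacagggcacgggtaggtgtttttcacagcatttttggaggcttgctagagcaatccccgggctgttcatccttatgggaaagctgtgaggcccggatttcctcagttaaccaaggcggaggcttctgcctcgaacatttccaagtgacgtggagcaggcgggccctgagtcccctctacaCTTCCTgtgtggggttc

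Each of the 3 stretches held 1 copy of the Ets-type letters, and that of Cd3g also held CAGCTG. Promoter windows of 300 bases, reaching 50 bases past the start, were found for 9 of the 10 genes. AGGAAG was in those of 6 genes, Cd3g, Cd3d, Cd3e, Lck, Zap70 and Il7r, and in 34.5% of all 33469 windows. TGTGGT, a Runx-type core, was in those of Cd2, Lck and Il7r and in 17.3% of all windows. CAGCTG was in those of Cd3g and Cd2 and in 15.1% of all. The letters AGATAA, known from sites of the GATA factors, were in 0 of the 9 and in 11.6% of all. A gene was counted if any of its windows held the letters, and Lck had 2 windows, whereas the shares are per window. Both strands were searched, no searched motif contains another, and a match of letters is not a measured site. The 3 promoters differed in composition, with 66.4% G and C for Cd3g, whose stretch ends in a short tandem repeat, 49.6% for Cd3d and 56.0% for Cd3e.

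Cd3g, the gamma chain, stood at 8.50, 8.64 and 8.47 in peri-implant tissue and at 6.12, 6.42 and 6.18 in mucosa. All 6 values were above the floor, though the mucosal values lay near it, and the groups were 2.05 apart at their nearest arrays. The floor is a percentile of all signals and not a test of detection. Among the CD3 genes, only Cd3g had no dim value. Its difference was 2.30 (SE 0.22), or 4.91-fold (limma adjusted p = 5.25e-06), the 108th largest rise of the 10585 genes tested.

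Cd3d, the delta chain, stood at 7.55, 7.03 and 7.57 in peri-implant tissue and at 4.26, 4.15 and 2.87 in mucosa. The mucosal arrays were all dim and all below every peri-implant array. The difference was 3.62 as deposited (SE 0.59 and adjusted p = 0.000791 in the limma fit without a filter) and 1.49 with dim values raised. Its mean over the 6 arrays, 5.57, fell just short of the filter.

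Cd3e, the epsilon chain, stood at 7.59, 7.14 and 7.62 against 4.70, 4.21 and 2.85, again with every mucosal array dim. The difference was 3.53 (SE 0.51), or 11.5-fold as deposited (limma adjusted p = 0.000229), and 1.55, or 2.93-fold, with dim values raised. With its mean of 5.69 it passed the filter by a narrow margin. The probe sets of Cd3d and Cd3e followed each other closely across arrays: Cd3e minus Cd3d was between -0.023 and 0.11 on 5 arrays and 0.44 on mucosal array 1. In both, peri-implant array 2 was the lowest of its group and mucosal array 3 the lowest of its own, although the mucosal values are dim. A second probe set of Cd3e had 6.03, 6.62 and 5.97 in peri-implant tissue against 2.26, 5.71 and 2.78 in mucosa. There too every peri-implant array was the higher, but mucosal array 2 came within 0.25 of them, and the limma fit without a filter did not call it (adjusted p = 0.0863). That probe set did not share the order of arrays: peri-implant array 2 was the highest of its group and mucosal array 1 the lowest of its own.

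Cd2, an adhesion receptor of T cells and natural killer cells that binds CD48 in rodents, stood at 7.66, 7.69 and 7.51 against 5.90, 5.59 and 6.25. The peri-implant arrays lay within 0.17 of each other and the mucosal arrays near the floor, 1 of them below it. The difference was 1.71 (SE 0.29), or 3.27-fold (limma adjusted p = 0.000728), and 1.61 with dim values raised.

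Measurement of the co-receptors was limited by dim signals. Cd4, which rat monocytes and macrophages express besides helper T cells, stood at 5.70, 5.96 and 2.09 in peri-implant tissue and at 5.39, 3.72 and 4.12 in mucosa. Only peri-implant array 2 rose above the floor, and peri-implant array 3 was the lowest of all 6. The difference was 0.17 as deposited and 0.020 with dim values raised, and ran from -0.52 to 1.41 over the alternatives (SE 1.07 and adjusted p = 0.951 in the limma fit without a filter). Cd4 had a single probe set, and a difference was not detectable at this signal.

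Cd8a, the alpha chain of CD8 on cytotoxic T cells, stood at 6.79, 6.22 and 6.21 in peri-implant tissue and at 5.33, 3.54 and 2.89 in mucosa. The groups were separate, and all mucosal arrays were dim. Its difference of 2.49 (SE 0.75; adjusted p = 0.0456 in the limma fit without a filter) became 0.51, or 1.42-fold, with dim values raised. The 2 other probe sets of Cd8a were dim in both groups and their groups overlapped, with differences of 0.40 and 1.18, or -0.025 and 0 with dim values raised (adjusted p = 0.888 and 0.627 in the same limma fit). Cd4 minus Cd8a changed by -2.32 between the tissues (two-sided exact permutation p = 0.1, the smallest that 3 arrays against 3 allow). With dim values raised that change was -0.49, and without peri-implant array 3 it was -1.17, so unequal change of the co-receptors was not established.

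Lck, the Src-family kinase that starts receptor signalling, stood at 8.14, 8.29 and 8.20 in peri-implant tissue and at 6.98, 7.56 and 7.20 in mucosa. It was clearly measured on every array, and the groups were 0.58 apart at their nearest values. The difference was 0.96 (SE 0.21), or 1.95-fold (limma adjusted p = 0.00429).

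Zap70, the kinase recruited to phosphorylated CD3 and zeta chains, stood at 7.45, 7.33 and 7.35 against 6.21, 6.60 and 4.02. Peri-implant arrays were within 0.12 of each other, whereas mucosal array 3 lay 2.19 below the next mucosal array. The difference was 1.77 (SE 0.54; limma adjusted p = 0.0315), or 1.14 with dim values raised. The call was lost without any 1 of the peri-implant arrays (adjusted p = 0.0914, 0.0813 and 0.0794 without arrays 1, 2 and 3 in limma), with no filter, and without the variance trend (adjusted p = 0.131 in limma). Over its 12 alternatives the limma adjusted p was 0.00337 to 0.131. The other probe set of Zap70 was dim on all mucosal arrays and overlapped between groups, at 4.87, 3.07 and 6.07 against 3.70, 3.19 and 3.56.

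Il2rg, the common gamma chain of the receptors for interleukin-2, interleukin-7 and interleukin-15, is found on lymphocytes and on myeloid cells. It stood at 8.53, 8.48 and 8.52 in peri-implant tissue and at 6.86, 6.61 and 6.57 in mucosa. These were the tightest replicates of the set, within 0.05 around the implant and 0.29 in mucosa. The difference was 1.83 (SE 0.20), or 3.57-fold (limma adjusted p = 1.81e-05).

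Il7r, the alpha chain of the interleukin-7 receptor and a survival receptor of naive and memory T cells, stood at 7.47, 7.36 and 7.45 against 5.63, 5.98 and 6.23. The mucosal arrays were near the floor and the groups 1.13 apart. The difference was 1.48 (SE 0.29), or 2.79-fold (limma adjusted p = 0.00222). A second tested probe set of Il7r stood at 7.04, 7.29 and 7.61 against 3.72, 5.45 and 4.47 and was called in the same direction (limma adjusted p = 0.000758). Its mucosal arrays were all dim, and its difference of 2.77 (SE 0.47) became 1.42 with dim values raised.

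**Figure D2:**
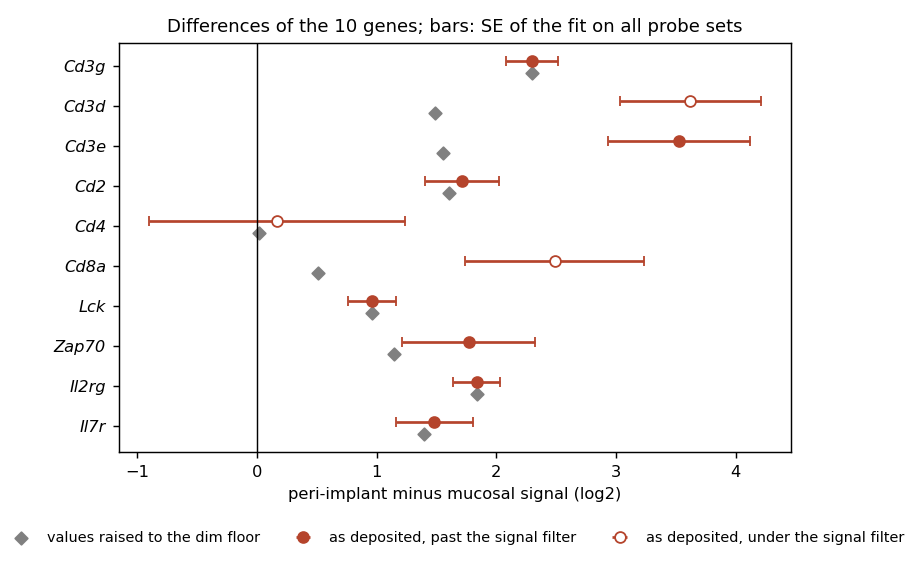
Peri-implant minus mucosal signal on the log2 scale for the 10 genes, as deposited (circles, with the SE of the limma fit on all probe sets; open where the gene did not pass the signal filter) and with values under 5.90 raised to it (grey diamonds). Cd3g, Lck and Il2rg are the same both ways, while Cd3d moves from 3.62 to 1.49, Cd3e from 3.53 to 1.55 and Cd8a from 2.49 to 0.51.

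The order of the differences therefore depended on how dim values were treated. As deposited, Cd3d and Cd3e came before Cd8a and Cd3g. With dim values raised, Cd3g came first at 2.30, followed by Il2rg at 1.83, Cd2 at 1.61, Cd3e at 1.55, Cd3d at 1.49, Il7r at 1.39, Zap70 at 1.14, Lck at 0.96, Cd8a at 0.51 and Cd4 at 0.020. Neighbours in this order from Il2rg to Il7r were at most 0.23 apart, beside SEs of 0.20 to 0.59 for the differences of these genes as deposited, so their order is not resolved. Across the 15 probe sets, 11 had every peri-implant array above every mucosal array, and the 4 that overlapped were that of Cd4, the 2 dimmer ones of Cd8a and the dimmer one of Zap70. Counted by gene, on the brightest probe set of each, 19.8% of all genes on the array were separated in this way. The share over all probe sets was not determined.

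**Figure D3:**
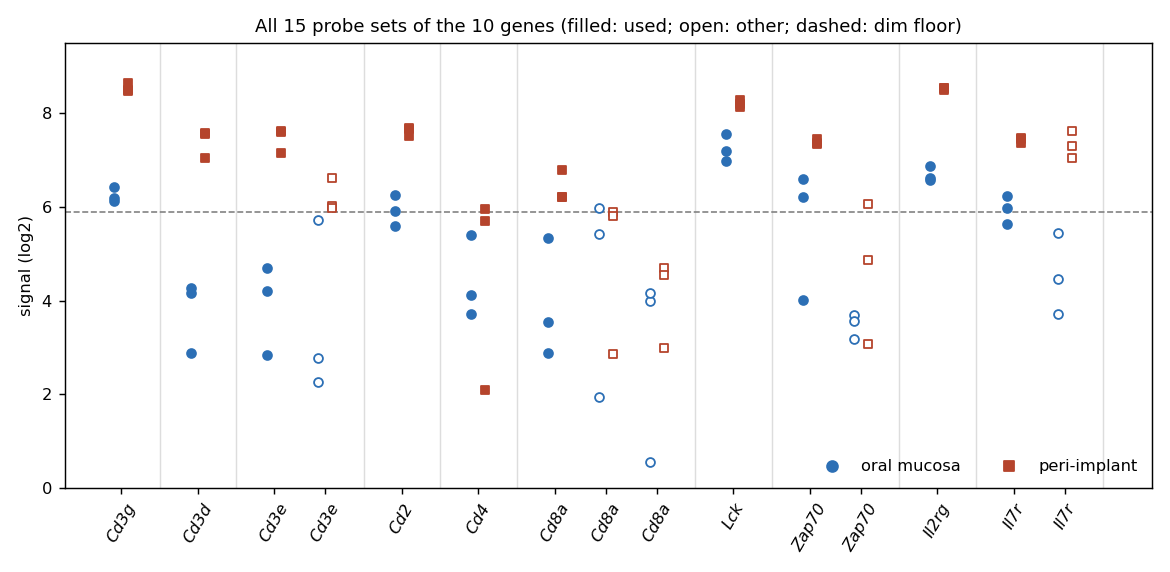
Signal on the log2 scale of all 15 probe sets of the 10 genes on the 3 mucosal (blue circles) and 3 peri-implant arrays (red squares), filled for the probe set used and open for the others, with the dim floor of 5.90 dashed. The second probe sets of Cd3e and Il7r keep the groups apart, and those of Cd8a and Zap70 do not.

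Other genes of the pathway came from 5 lists with 109 genes, of which 81 were on the array and 58 were tested. Of these 58, 26 were called higher and 3 lower, and 29 were not called, beside 15.2% higher and 11.0% lower among all genes tested. The filter bears on this count too, since several of the genes called higher were dim in mucosa and passed through their peri-implant values. In the limma fit without a filter, 23 of the 81 were called higher and 3 lower, where 10.4% of all genes were called higher. The lists differed in their counts.

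In the list of proximal signalling, 8 of 15 tested genes were called higher and 1 lower, with a median difference of 1.08. Fyb1, an adaptor of T cells and myeloid cells, was higher by 2.25 (SE 0.25), Lcp2, the adaptor SLP-76, by 1.98 (SE 0.26), and the leukocyte phosphatase Ptprc, known as CD45, by 1.69 (SE 0.20). Cd247, the zeta chain of the receptor complex, was higher by 1.45 (SE 0.24), from 6.81 ± 0.37 to 8.26 ± 0.15 (SD, n = 3 each; limma adjusted p = 0.000575). Dgka, a diacylglycerol kinase that damps signalling and the brightest gene not called, stood at 10.74 against 10.81. Lat, the adaptor that ZAP-70 phosphorylates, stood at 6.94 against 5.84 and was not called (limma adjusted p = 0.0664).

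In the downstream list 2 of 11 tested genes were called higher and 1 lower (median difference 0.21). These counts are near the shares of all genes tested, 15.2% higher and 11.0% lower. Nfatc1, a calcium-regulated transcription factor, fell by 1.29 (SE 0.18). Nfkb1 was higher by 0.68 (SE 0.14) and the kinase Map4k1 by 1.89 (SE 0.50), or 0.83 with dim values raised. The call for Map4k1 was lost without peri-implant array 3 (limma adjusted p = 0.0824) and that for Nfkb1 without the variance trend (limma adjusted p = 0.0541). The activation marker Cd69 differed by 1.83, or 0.83 with dim values raised, without passing (limma adjusted p = 0.0605). It passed in 4 of 13 alternatives, without mucosal array 2 (0.0131), with dim values raised (0.0267), with median centring (0.0341) and with the replicate block (0.0481, each a limma adjusted p, in a range from 0.0131 to 0.176). Bcl10 differed by 0.21 (limma adjusted p = 0.0765). The cytokine genes Il2 and Ifng were dim in both groups.

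In the list of receptor chains, CD8 beta and T cell identity genes, the receptor chains were not analysed here and Cd8b was not tested. The 10 tested were identity genes, of which 5 were called higher and 0 lower (median difference 0.81). The transcription factor Runx1 was higher by 0.88 (SE 0.12), the chemokine receptor Ccr6 by 2.94 (SE 0.53), or 1.63 with dim values raised, and Runx3 and Cxcr3 by 2.03 and 1.19, or 1.24 and 0.75 with dim values raised. Runx1 was bright in mucosa as well, at 10.82, where every value of Cd3d and Cd3e was dim. Which cells gave the signals of these identity genes was not tested. The calls for Runx3 and Cxcr3 were lost without any 1 of the peri-implant arrays or without mucosal array 1, and that for Runx3 also without the variance trend. That for Cxcr3 was also lost without mucosal array 3, with no filter (limma adjusted p = 0.0992) and with the replicate block (limma adjusted p = 0.0549). Over the alternatives the limma adjusted p reached 0.124 for Runx3 and 0.125 for Cxcr3. Tcf7 stood at 10.01 against 10.05 and Ets1 at 8.99 against 9.12, and neither was called. Lef1 and Satb1 differed by 0.54 and 0.73 without being called. Bcl11b, a T lineage factor that keratinocytes also express, stood at 10.94 against 11.30 (limma adjusted p = 0.101), and was called lower in 4 of 14 alternatives, 2 of them without peri-implant array 1 or mucosal array 3 (limma adjusted p from 0.00932 to 0.360). Cd8b, the partner of Cd8a, did not pass the filter and stood at 5.70 against 3.43. All 6 of its values were dim, so with dim values raised the difference was 0.

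In the list of common gamma chain and interleukin-7 partners, 2 of 12 tested genes were called higher and 1 lower (median difference -0.16). Those counts, too, are near the 15.2% higher and 11.0% lower among all genes tested. The ligand genes were not called higher: Il7 was at 5.97 against 6.87 and Il15 at 7.67 against 8.25, neither of them called (limma adjusted p = 0.0892 and 0.0648). Il4r was higher by 0.46 (SE 0.11) and Il2rb, a chain of the receptors for interleukin-2 and interleukin-15, by 1.38 (SE 0.39), or 0.80 with dim values raised. Cish, a feedback inhibitor of cytokine signalling, fell by 0.57 (SE 0.15), and the kinase Jak1 stood at 12.50 against 12.46. These calls were lost in 3 alternatives for Il4r, among them without peri-implant array 2 and without mucosal array 1, in 5 for Il2rb, among them without any 1 of the peri-implant arrays or mucosal array 3, and in 3 for Cish, among them without peri-implant array 3 and without mucosal array 3 (limma adjusted p up to 0.0619, 0.109 and 0.206).

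In the list of ligands of the co-receptors and of CD2, 9 of 10 genes were called higher, and the median difference was 2.18. The list also held Cd74, RT1-DMa and RT1-DMb, which serve class II assembly and peptide loading and are not ligands of CD4. Its class I heavy chain genes were not analysed here, which left only B2m, higher by 0.86, for class I. Cd74, the invariant chain, was higher by 3.15 (SE 0.07), and the class II genes RT1-Ba, RT1-Da and RT1-Bb by 2.88, 2.81 and 2.76. Averaged over its probe sets, RT1-Ba was higher by 1.21. Cd48, the ligand of CD2, was higher by 0.96. Il16, which binds CD4, stood at 6.48 against 6.30 and was not called (limma adjusted p = 0.794).

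**Figure D4:**
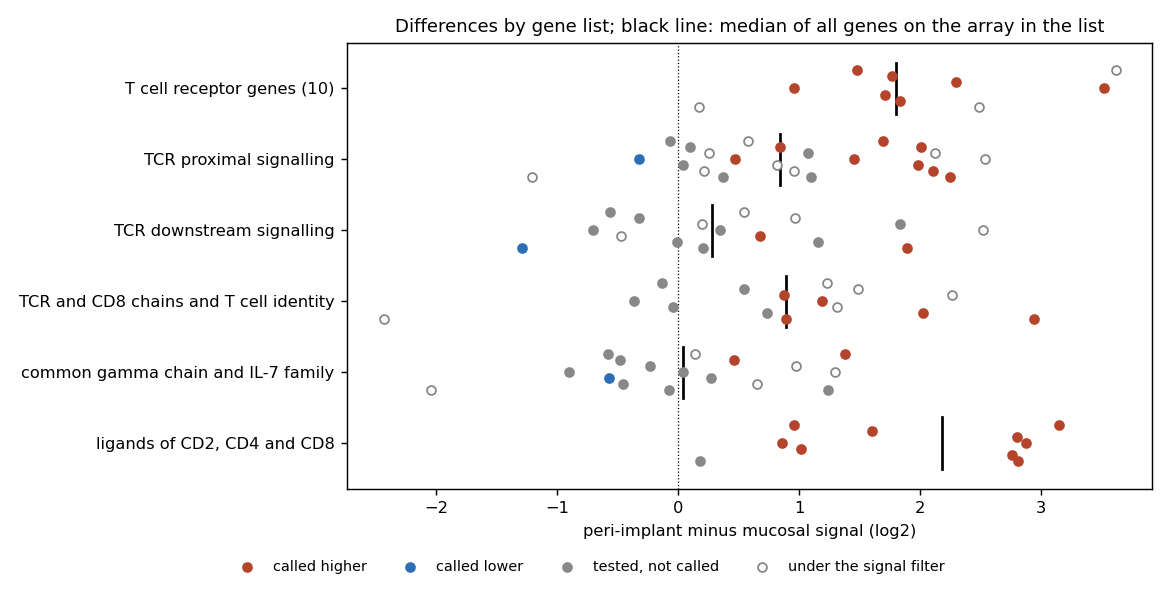
Peri-implant minus mucosal signal on the log2 scale for each gene of the 10 T cell receptor genes and the 5 pathway lists, with called genes in red (higher) or blue (lower), tested genes that were not called in grey, and genes under the signal filter open. Black lines are medians over all genes of a list on the array, at 1.80 for the 10 genes, 0.04 for the common gamma chain list and 2.18 for the ligand list.

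Markers of other cells moved in the same comparison, and several members are not exclusive to T cells. Counts in this paragraph and the next stand beside 15.2% of all genes tested called higher and 11.0% called lower. Macrophage and monocyte markers were called higher in 13 of 14 tested genes, with Clec7a higher by 2.87 and Cybb by 1.85 as the genes of smallest p, and their summed linear signal was 28475 to 30460 per peri-implant array against 11709 to 12699 per mucosal array. Dendritic cell markers were higher in 3 of 6, with Irf8 and Itgax as the genes of smallest p, with sums of 3483 to 3690 against 1644 to 1922. The third was Itgae, higher by 0.61. Cd83, at 7.20 against 7.12, Ccl22 and Cd1d1 were tested and not called. Natural killer and cytotoxic genes, which share Cd2, Lck and Zap70 with T cells, were mostly dim: 4 of 20 passed the filter and 2 were higher, Cst7 by 1.47 and Ccl5 by 2.32, or 1.18 with dim values raised (called no longer without peri-implant array 1, limma adjusted p = 0.0648), with sums of 1109 to 1259 against 530 to 730 and Gzma listed at 0 on at least 1 array. B and plasma cell markers were higher in 2 of 5, Blnk by 1.26 and Jchain by 3.44, or 1.71 with dim values raised, with sums of 2028 to 2389 against 857 to 1102, while Cr2 and Pou2af1 were listed at 0 on at least 1 array. Blnk, at 10.61 around the implant beside 7.61 for Jchain, made up most of these sums. Cd22, Blk and Mzb1 were not called, and 6 of the 11 genes on the array, among them Ms4a1 and Cd79b, were dim in both groups. Neutrophil markers were higher in 3 of 4, with sums of 118290 to 160819 against 26325 to 28785, with S100a9 and S100a8 as its genes of smallest p, higher by 2.77 and 1.89. These sums rest almost wholly on S100a9 and S100a8, at 16.15 and 15.87 around the implant, beside 8.82 for Csf3r, which was higher by 2.26. Cxcr2 stood at 7.75 against 7.86 and was not called (limma adjusted p = 0.762). Ncf1, Mmp8 and Camp were dim in both groups. The 10 T cell receptor genes summed to 2004 to 2112 against 521 to 642. Mast cell genes were called in 0 of 1, with sums of 199 to 317 against 177 to 373 and Cma1 listed at 0 on at least 1 array. The part of these cells in the differences of Cd4, Cd2, Il2rg and the kinases was not tested.

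Among the cells that make up the rest of the tissue, keratinocyte genes were called higher 3 times and lower 3 times among 10, with sums of 279434 to 376427 against 271430 to 371863. These sums rest mostly on the bright keratins Krt10, Krt13, Krt14 and Krt5, and like sums do not mean that single genes were unchanged. Krt4, higher by 3.12, and Col17a1, which fell by 1.49, were the keratinocyte genes of smallest p. Among 10 fibroblast genes 2 were higher and 6 lower, with sums of 40277 to 42108 against 64086 to 70343. Among 9 endothelial genes 2 were higher, with sums of 1638 to 1765 against 1066 to 1403. Among 4 erythrocyte genes, a sign of blood, 3 were higher, with sums of 52673 to 73198 against 39260 to 53137. These sums overlap and rest almost wholly on Hbb, at 15.86 around the implant beside 9.70 for Alas2. Hbb stood at 15.46 in mucosa and was the gene not called (limma adjusted p = 0.0635).

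Genes outside the set whose profile was closest to that of the CD3 chains were found by centring each gene on its mean over the 6 arrays and taking the root mean square difference from the mean centred profile of Cd3g, Cd3d and Cd3e. The closest was Plek, pleckstrin, a protein of platelets and leukocytes, at 0.21 log2 units. It was followed by Rac2, a GTPase of blood cells, at 0.22, Itgax, the integrin chain CD11c, at 0.25, Mnda at 0.25 and the hair-type keratin Krt86 at 0.27. Their own differences were 3.09, 3.18, 3.10, 2.72 and 2.85, that of Itgax being 2.71 with dim values raised. On the same measure Cd3e itself was at 0.30, Cd3g at 0.56, Il2rg at 0.72 and Lck at 1.16. The profile is set mainly by the size of the difference between groups, so the measure finds genes with a like difference, and a keratin is among them. That size rests partly on dim values, since every mucosal value of Cd3d and Cd3e was dim. With dim values raised, their differences were 1.49 and 1.55, and that of Cd3g stayed at 2.30. Cd3g, above the floor on every array, was farther from the mean profile than each of the outside genes named.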

How the data were processed

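RNA of 6 rat tissue samples, 3 per group, was amplified, labelled with biotin by an Affymetrix 3′ kit and hybridised, per the labels' protocols. The authors deposited log2 values, which were used as deposited. How signals were summarised and scaled is not given in the sources used here, but the values show a scaling: after trimming 2% at either end, every array had a linear mean of 500.2, and its lowest log2 value was 0. Of 31099 probe sets 57 were controls. An annotation table gave 1 symbol for 20826 of the rest, several for 436 and none for 9780.

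Probe sets with a 6-array mean above the 40th percentile (5.68), 18625 in all, were tested with limma 3.58.1 in R 4.3.3 (eBayes with trend, two-sided, Benjamini-Hochberg adjustment over all of them), and the procedure was tested on simulated data. Genes are represented by their brightest probe set. Precision is limited by the number of arrays. Sequences are from RefSeq, GRCr8. Same-numbered arrays did not deviate together (correlations of 0.01, -0.08 and 0.03 for numbers 1, 2 and 3).

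The members and the 15 gene lists, with 187 of 239 entries on the array, were chosen with earlier results of these data known. Named genes are the members, up to 4 genes of smallest p and the brightest uncalled gene per pathway list, up to 2 per cell type list, and 5 of closest profile. Lat, Cd8b, Cd48, Il7, Il2, Ifng, Krt5 and Krt14 were named after their values were seen. So were Csf3r, Cxcr2, Ncf1, Mmp8, Camp, Cd22, Blk, Mzb1, Ms4a1, Cd79b, Tcf7, Ets1, Lef1, Satb1, RT1-DMa, RT1-DMb and B2m. The same holds for Hbb, Krt10, Krt13, Itgae, Cd83, Ccl22 and Cd1d1. Alternatives covered the filter, trend, normalisation, floor, probe set choice, replicate block and each array left out.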

Additional observations from a re-analysis of the deposited data

How the results depend on the processing

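The 7 tested T cell receptor genes kept their direction under the alternatives in which they were tested. Cd3g, Cd3e, Cd2, Lck, Il2rg and Il7r were called in each of these, and Zap70 in 7 of 12. With the filter at the 60th percentile, a signal of 7.57, only Lck and Il2rg were still tested, so 2 members were called, their median difference was 1.40, and 15 pathway genes were called higher. Without the variance trend 1816 genes were called in all instead of 2767, and 6 members. With the mean of the probe sets of each gene 5 members passed the filter and were called. Without 1 array the count of members called was 6 to 7, of all genes 2056 to 2714 and of pathway genes called higher 18 to 28, and the median of the members was 1.73 to 1.93. Cd4 minus Cd8a ran from -3.10 to -1.17 when 1 array was left out. With the replicate block 7 members, 26 pathway genes and 2704 genes were called, and no member changed its call. Among the genes named from the lists, the block ended the calls of Cxcr3 and Flt1 (limma adjusted p = 0.0549 and 0.0665) and added those of Cd69 and Bcl11b (limma adjusted p = 0.0481 and 0.0234). Among genes named from the lists but not called, the differences ran from -0.17 to 0.051 for Dgka and from -0.12 to 0.52 for Il16 when 1 array was left out, positive and negative respectively without mucosal array 3, and the difference turned to -0.13 for Jak1 with the mean of its probe sets. The causes of these changes were not tested, apart from the smaller number of genes that a stricter filter leaves. Signal over background limits Cd4, Cd8a and the mucosal values of Cd3d and Cd3e most. No pseudocount was needed, since the values were on the log2 scale, and that alternative was not run.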
